A study of Rattus norvegicus with 9 samples.

Results

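Transcripts of 6 enzymes of glycolysis downstream of hexokinase were followed in dorsal root ganglia (DRG) of normal and STZ-injected Sprague-Dawley rats. These ganglia lie along the spinal cord and hold the cell bodies of sensory neurons with their glia. The genes were Gpi, Aldoa, Aldoc, Pgam1, Eno1 and Ldhb, taken by symbol from the array's annotation, and each had 1 probe set annotated to it alone (Entrez gene identifiers 292804, 24189, 24191, 24642, 24333 and 24534, in that order). They are thus 6 of 15866 non-control probe sets, and all 6 passed the filter on dim signals that left 9520 probe sets for testing. The question they address is whether glycolytic transcripts differ between the groups when Txnip, a regulator of glucose uptake and not an enzyme of the pathway, is left aside.

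The normal group received no streptozotocin (STZ) and was treated with vehicle. Of the STZ-injected groups, one was treated with vehicle and the other with FK1706. STZ kills pancreatic beta cells and is used to induce diabetes, and FK1706 is an immunophilin ligand. Lumbar ganglia L4 to L6 were taken 1 day past the end of 1, 2 or 3 weeks of treatment. Each Affymetrix array, 9 in all, held equal amounts of RNA from 5 rats pooled together, and each group had 1 array in each week and 3 in all. The dose of FK1706 and the age of the rats are not given in the sources used here, and no normal rats were given FK1706. A pool hides the spread between rats, and the spread within a group also holds any difference between weeks.

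Glycolysis turns glucose into pyruvate in the cytosol and yields ATP without oxygen. Hexokinase traps glucose in the cell. The enzymes after it rearrange the sugar phosphate (GPI) and cleave it (the aldolases). In the second part of the pathway PGAM1 moves a phosphate and enolase removes water, and lactate dehydrogenase exchanges pyruvate with lactate. Sensory neurons depend on both glycolysis and respiration, and glia are known to pass lactate to neurons. In diabetes the cells of the ganglion take up glucose without needing insulin, so their supply follows blood glucose.

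The arrays were not on a common level as deposited. The 2% trimmed mean signal was highest, at 532.3, for normal rats of week 1 and lowest, at 359.7, for FK1706 rats of week 3. Values were therefore quantile-normalized on the log2 scale after an offset of 18.7 signal units, and the log2 values below are on that scale unless the deposited signal is named. Without scaling, the median log2 difference over the 9520 probe sets was -0.10 for STZ vehicle against normal vehicle, -0.07 for FK1706 against STZ vehicle and -0.17 for FK1706 against normal vehicle. It was -0.43 for week 3 against week 1. The normalized differences are thus relative to the bulk of the array. All 10 neuron marker genes checked, such as the neurofilament genes, had tested probe sets, and their mean log2 signal lay between 12.02 and 12.14 on all arrays.

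**Figure D1:**
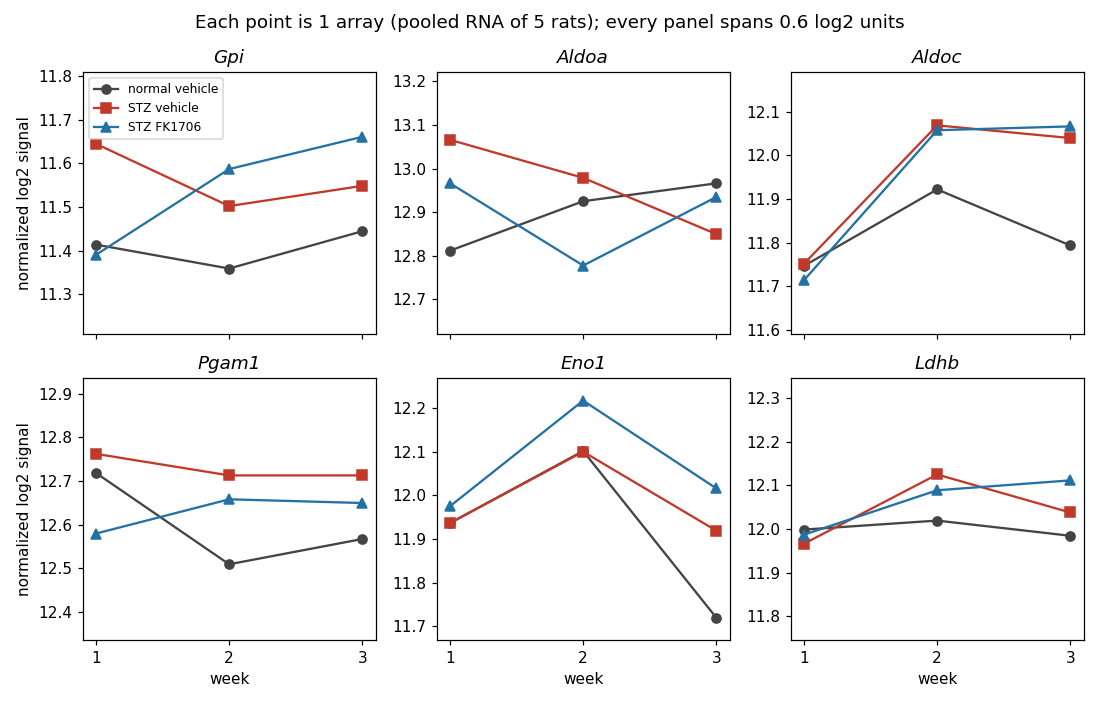
Normalized log2 signal (vertical axis) of the 6 genes by week (horizontal axis), with 1 point per array and a line per group. Every panel spans the same range of log2 units. Gpi in the STZ vehicle arrays lies above all normal arrays, while Aldoc starts at 11.71 to 11.75 in all 3 groups in week 1 and is higher in every later array.

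Compared with normal rats, STZ vehicle rats had slightly higher normalized signals of all 6 genes on the quantile and trimmed mean scales, by 1.03-fold (Ldhb) to 1.12-fold (Gpi), where 51.3% of all probe sets were higher on the quantile scale. On the deposited scale only 3 of the 6 were higher. None passed the test. In limma the smallest adjusted p of the 6 was 0.582, and 0.063% of all probe sets passed in this comparison. On the quantile scale no member had an unadjusted p under 0.05, against 8.7% of all probe sets. Pgam1 had one on the trimmed mean scale (0.16, SE 0.0644, adjusted p = 0.536 in limma). Over the 22 alternatives to this processing the count was 0 to 2 of the 6, and the share of all probe sets was not counted there. The median log2 difference of the 6 was 0.10, where the median of all probe sets was 0.00 and their quartiles were -0.095 and 0.10. Of the 6, 3 lay inside those quartiles. In bulk ganglia, a difference in the number of cells of a type cannot be told apart from a difference in RNA per cell.

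Gpi encodes glucose-6-phosphate isomerase, the first step after hexokinase. The deposited Gpi signal of weeks 1, 2 and 3 read 3304.9, 2933.9 and 2429.8 for normal, 3809.6, 2839.6 and 2443.9 for STZ vehicle and 2867, 2943.7 and 2626.2 for FK1706 rats. On the normalized log2 scale, Gpi read 11.41, 11.36 and 11.44 for normal, 11.64, 11.50 and 11.55 for STZ vehicle and 11.39, 11.59 and 11.66 for FK1706 rats. Each STZ vehicle array was thus above all normal arrays, and the FK1706 array of week 1 lay among the normal ones. Over all probe sets, 6.13% had all STZ vehicle arrays above all normal arrays, and Gpi was the 1 of the 6 genes that did.

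The log2 difference of Gpi between STZ vehicle and normal was 0.16 (SE 0.0781, adjusted p = 0.586 in limma), with 0.23, 0.14 and 0.10 in weeks 1, 2 and 3. It was 0.0827 when the STZ vehicle array of week 1 was left out. The 95% interval of the ratio ran from 0.991 to 1.26. Group means were 11.41 ± 0.0433 (SD, n = 3) in normal, 11.55 ± 0.14 in FK1706 and 11.57 ± 0.0727 in STZ vehicle rats. The last 2 levels differed by less than their spread. The difference shrank to 0.06 on the deposited scale (adjusted p = 0.823 in limma).

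Aldolase splits fructose bisphosphate into both triose phosphates. Aldoa encodes the isoform of muscle and most other tissues, and Aldoc the isoform best known from brain. The deposited Aldoa signal of weeks 1, 2 and 3 read 8620.3, 8306.2 and 7356.8 for normal, 9786.6, 8031.7 and 6290.9 for STZ vehicle and 8392.3, 6810.3 and 6781.1 for FK1706 rats. On the normalized log2 scale, Aldoa read 12.81, 12.93 and 12.97 for normal, 13.07, 12.98 and 12.85 for STZ vehicle and 12.97, 12.78 and 12.93 for FK1706 rats. The 3 groups overlapped, and the highest and one of the lower values both came from STZ vehicle rats.

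The log2 difference of Aldoa between STZ vehicle and normal was 0.06 (SE 0.0736, adjusted p = 0.826 in limma), made of 0.25, 0.05 and -0.12 in weeks 1, 2 and 3. Without the week 1 normal array it was -0.023. A linear week term for that difference was -0.19 per week (SE 0.0807, unadjusted p = 0.0444, adjusted p = 0.999 in limma), and 3.93% of all probe sets had an unadjusted p under 0.05 in that test. None of the 9520 probe sets passed it (0% called, smallest adjusted p = 0.999, with 374 at an unadjusted p under 0.05). The group order was FK1706 (12.89 ± 0.101, SD, n = 3), normal (12.90 ± 0.0799) and STZ vehicle (12.96 ± 0.109), and no neighbouring levels differed by more than the larger SD.

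Aldoa is abundant in skeletal muscle, and muscle transcripts varied between the pools. Of 16 muscle marker genes, 15 had a probe set, 9 had a tested one and none was at 0. Their summed normalized signal ranged from 6523 to 9661 in normal, from 5807 to 7522 in STZ vehicle and from 5892 to 7046 in FK1706 arrays. The actin gene of skeletal muscle, Acta1, read 9.14, 10.75 and 9.84 for normal, 9.44, 8.47 and 9.91 for STZ vehicle and 9.23, 10.12 and 8.40 for FK1706 rats of weeks 1, 2 and 3. Ckm, muscle creatine kinase, ranged from 7.67 in the week 2 STZ vehicle array to 9.57 in the week 2 normal array. Myl1, a myosin light chain gene, was lowest at 6.55 in the week 3 FK1706 array and highest at 9.48 in the week 2 normal array. Not all muscle markers varied alike. In week 2 the log2 difference of STZ vehicle minus normal was -2.28 for Acta1. It ran from -0.33 to 0.39 over the tested probe sets of the marker Myh1. Those of the marker Tnni1 had 0.19 and -0.54. Over the 9 arrays, which share their groups and weeks, Aldoa had a Pearson r of -0.25 (Spearman rho = -0.335) with the mean of the muscle markers, and Pgam1 had the value farthest from 0 of the 6 (r = -0.54, rho = -0.285). With that mean as a covariate, the log2 difference of Aldoa between STZ vehicle and normal was 0.05 in place of 0.06. That of Ldhb was 0.009 in place of 0.04, and that of Pgam1 was 0.10 in place of 0.13. The part of muscle RNA in these differences was not tested further. Markers of other cell types were read beside them. Of 8 probe sets of fibroblast markers, 3 passed as lower in STZ vehicle than in normal rats, with a list median of -0.48. These were both Col1a1 probe sets (-0.93, SE 0.107, and -0.82, SE 0.0951, both adjusted p = 0.0115 in limma) and Col3a1 (-0.54, SE 0.0682, adjusted p = 0.0135), which encode fibrillar collagens. Col1a2, a further collagen gene, had -0.53 (SE 0.0828, adjusted p = 0.0687) and -0.43 (SE 0.118, adjusted p = 0.339) in its probe sets. The fibroblast markers that are not collagens differed little, with -0.08 for Dcn (SE 0.0562), -0.05 for Lum (SE 0.103) and 0.07 for Pdgfra (SE 0.112). With no filter on dim signals, no probe set passed in this comparison. All 9 probe sets of Schwann cell markers were lower on the quantile scale, with a median of -0.16, where 51.3% of all probe sets were higher. None of the 9 passed, and 5 had an unadjusted p under 0.05 in limma, against 8.7% of all probe sets in either direction. The 10 of satellite glia had a median of 0.09, and 6 were higher. Probe sets of the same gene could disagree in sign, as for Glul (0.23, -0.12 and -0.10). The summed fibroblast signal ranged from 30178 to 41920 in normal and from 23463 to 30700 in STZ vehicle arrays, and no marker was at 0. The part of cell makeup in the differences of the 6 genes was not tested.

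The deposited Aldoc signal of weeks 1, 2 and 3 read 4185.7, 4269.3 and 3162.5 for normal, 4084.5, 4224.9 and 3491.2 for STZ vehicle and 3646.1, 4117.6 and 3588.5 for FK1706 rats. On the normalized log2 scale, Aldoc read 11.75, 11.92 and 11.79 for normal, 11.75, 12.07 and 12.04 for STZ vehicle and 11.71, 12.06 and 12.07 for FK1706 rats. The groups were alike in week 1, and in weeks 2 and 3 both diabetic arrays lay above the normal one. The log2 difference between STZ vehicle and normal was 0.13 (SE 0.0678, adjusted p = 0.599 in limma), with 0.01, 0.15 and 0.25 in weeks 1, 2 and 3. Without the week 3 normal array it was 0.0682, and without the week 1 normal array 0.2077. A linear week term for the difference was 0.12 per week (SE 0.106, adjusted p = 0.999 in limma), and its sign turned without the week 1 STZ vehicle array (-0.0512) and without the week 3 normal array (-0.0293). Group means were 11.82 ± 0.0907 (SD, n = 3) in normal, 11.95 ± 0.201 in FK1706 and 11.95 ± 0.175 in STZ vehicle rats, and neighbours differed by less than the larger SD.

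Pgam1 encodes the phosphoglycerate mutase of most tissues other than muscle, which shifts the phosphate within phosphoglycerate. The deposited Pgam1 signal of weeks 1, 2 and 3 read 8013.6, 6439.8 and 5305.8 for normal, 8030.3, 6657.1 and 5678 for STZ vehicle and 6437.5, 6154.4 and 5496.7 for FK1706 rats. On the normalized log2 scale, Pgam1 read 12.72, 12.51 and 12.57 for normal, 12.76, 12.71 and 12.71 for STZ vehicle and 12.58, 12.66 and 12.65 for FK1706 rats. The week 1 normal array sat within the STZ vehicle range and the other normal arrays below it. The STZ vehicle arrays differed little among themselves, with a mean of 12.73 ± 0.0285 (SD, n = 3), against 12.60 ± 0.108 in normal and 12.63 ± 0.043 in FK1706 rats. Normal and FK1706 levels differed by less than the larger SD.

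The log2 difference of Pgam1 between STZ vehicle and normal was 0.13 (SE 0.0616, adjusted p = 0.582 in limma), with 0.04, 0.20 and 0.15 in weeks 1, 2 and 3. Without the week 2 normal array it was 0.0842, and without the week 1 normal array 0.197. Pgam1, Gpi and Aldoc made up the 3 of 6 genes higher in STZ vehicle than in normal rats in each week, which 15.4% of all probe sets were. Their differences in log2 are the largest of the 6, and the week 1 value of Aldoc is close to 0. None of the 6 was lower in each week, against 15.3% of all probe sets.

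Eno1 encodes alpha-enolase, which makes phosphoenolpyruvate. The deposited Eno1 signal of weeks 1, 2 and 3 read 4742.4, 4857.9 and 2978.5 for normal, 4556.1, 4290.7 and 3205.9 for STZ vehicle and 4246.4, 4546.8 and 3500 for FK1706 rats. On the normalized log2 scale, Eno1 read 11.94, 12.10 and 11.72 for normal, 11.94, 12.10 and 11.92 for STZ vehicle and 11.98, 12.22 and 12.02 for FK1706 rats. Normal and STZ vehicle rats had nearly the same level in weeks 1 and 2 and parted in week 3, where the normal array held the lowest of the 9 values. The log2 difference between them was 0.07 (SE 0.0652, adjusted p = 0.795 in limma), with a week 3 value of 0.20. Without the week 3 normal array it was -0.0038. Group means were 11.92 ± 0.192 (SD, n = 3) in normal, 11.99 ± 0.0998 in STZ vehicle and 12.07 ± 0.13 in FK1706 rats, and neighbours differed by less than the larger SD.

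Ldhb encodes the heart-type subunit of lactate dehydrogenase, whose tetramers are associated with the use of lactate. The deposited Ldhb signal of weeks 1, 2 and 3 read 4916.4, 4570.1 and 3608.2 for normal, 4642.5, 4372 and 3477.3 for STZ vehicle and 4289.1, 4182.6 and 3729.3 for FK1706 rats. On the normalized log2 scale, Ldhb read 12.00, 12.02 and 11.98 for normal, 11.97, 12.13 and 12.04 for STZ vehicle and 11.99, 12.09 and 12.11 for FK1706 rats. The normal arrays lay within the range of the STZ vehicle arrays. Ldhb had the smallest difference of the 6 between STZ vehicle and normal, at 0.04 (SE 0.0583, adjusted p = 0.861 in limma), with a 95% interval of the ratio from 0.942 to 1.13. It ranged from 0.0121 without the week 2 STZ vehicle array to 0.0792 without the week 1 normal array. Group means were 12.00 ± 0.0175 (SD, n = 3) in normal, 12.04 ± 0.0794 in STZ vehicle and 12.06 ± 0.0663 in FK1706 rats, and neighbours differed by less than the larger SD.

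Across these 6 genes the 95% intervals for STZ vehicle against normal ran from a ratio of 0.934 to one of 1.26, so larger differences lie outside the unadjusted interval of each gene. The standard errors of the 6 genes, from 0.0583 to 0.0781 in log2, were smaller than the median of all probe sets tested, 0.117. Probe sequences were not used here, so signal from related sequences, such as the other aldolase or pseudogenes, was not tested.

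**Figure D2:**
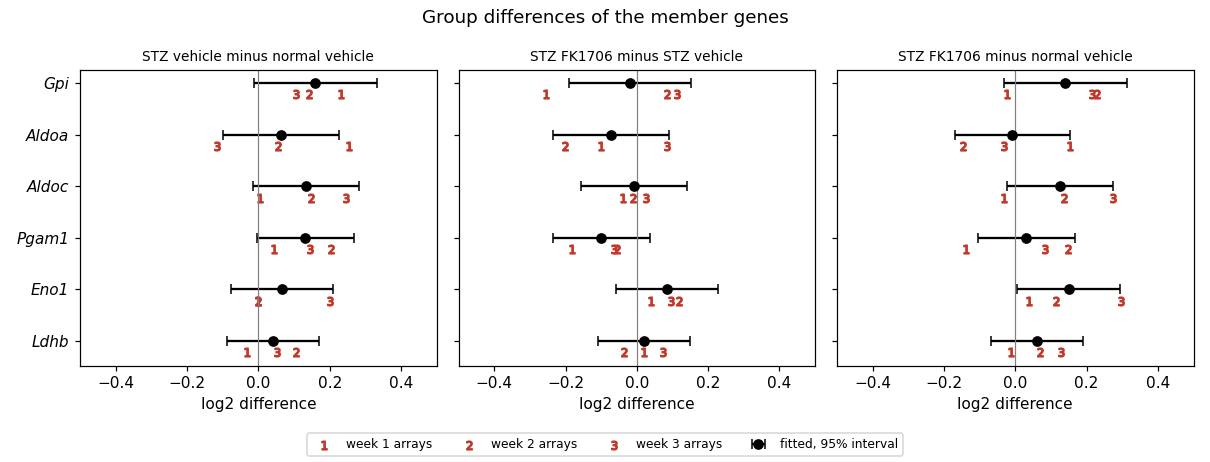
Log2 differences between groups (horizontal axis) for the 6 genes (vertical axis) in the 3 comparisons. Black points are fitted differences with unadjusted 95% intervals, and red digits are the differences between the 2 arrays of that week. The interval of Eno1 for FK1706 against normal starts at about 0 (ratio 1), and the other 17 include 0.

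The comparison of FK1706 with STZ vehicle asks whether the drug went with a difference in these transcripts after STZ. Fitted differences were small and went both ways, from -0.10 for Pgam1 to 0.08 for Eno1, with a median of -0.01 where that of all probe sets was 0.00. In limma none of the 6 passed, and 0% of all probe sets did (smallest adjusted p = 0.999, with 321 of 9520 at an unadjusted p under 0.05). None of the 6 had an unadjusted p under 0.05, against 3.37% of all probe sets. On the quantile scale 2 of the 6 were higher, as 49.9% of all probe sets were, with 3 on the trimmed mean scale and 1 on the deposited scale. The 95% intervals of the ratios lay between 0.849 and 1.17.

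Pgam1 was lower in all 3 FK1706 arrays (12.63 ± 0.043, SD, n = 3) than in any STZ vehicle array (12.73 ± 0.0285), a pattern that 3.52% of all probe sets shared. It was the 1 gene lower in each week, as 11.8% of all probe sets were. Its log2 difference was -0.10 (SE 0.0616, adjusted p = 0.999 in limma), with -0.18, -0.05 and -0.06 in weeks 1, 2 and 3. Without the week 1 FK1706 array it was -0.036. Eno1 was the 1 gene higher in each week, as 12% of all probe sets were, with 0.04, 0.12 and 0.10 in weeks 1, 2 and 3 and a fitted difference of 0.08 (SE 0.0652, adjusted p = 0.999 in limma). Gpi had differences of -0.25, 0.08 and 0.11 in weeks 1, 2 and 3. Its fitted difference was -0.02 (SE 0.0781). A linear week term for it was 0.18 per week (SE 0.0882, adjusted p = 0.999 in limma), and none of the 6 passed this test or had an unadjusted p under 0.05, against 0% and 3.39% of all probe sets (smallest adjusted p = 0.999, with 323 at an unadjusted p under 0.05). Aldoa had -0.07 (SE 0.0736), Aldoc -0.01 (SE 0.0678) and Ldhb 0.02 (SE 0.0583).

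The comparison of FK1706 with normal rats sets both STZ and the drug against neither, and it shares arrays with both comparisons above. Eno1 had the largest log2 difference, 0.15 (SE 0.0652, unadjusted p = 0.042, adjusted p = 0.598 in limma), with 0.04, 0.12 and 0.30 in weeks 1, 2 and 3. It was the 1 of the 6 with an unadjusted p under 0.05, which 8.16% of all probe sets had, and it was the 1 gene higher in each week, as 14% of all probe sets were. On the deposited scale its difference was -0.01, and without the week 3 normal array, the lowest Eno1 value, it was 0.08 (adjusted p = 0.858 in limma). Gpi had 0.14 (SE 0.0781), Aldoc 0.13 (SE 0.0678), Ldhb 0.06 (SE 0.0583), Pgam1 0.03 (SE 0.0616) and Aldoa -0.01 (SE 0.0736), and none of the 6 passed. Across the array 0% passed in limma (smallest adjusted p = 0.058, with 777 of 9520 at an unadjusted p under 0.05). Of the 6 genes, 5 were higher on the quantile scale (51.2% of all probe sets), 6 on the trimmed mean scale and 0 on the deposited scale.

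**Figure D3:**
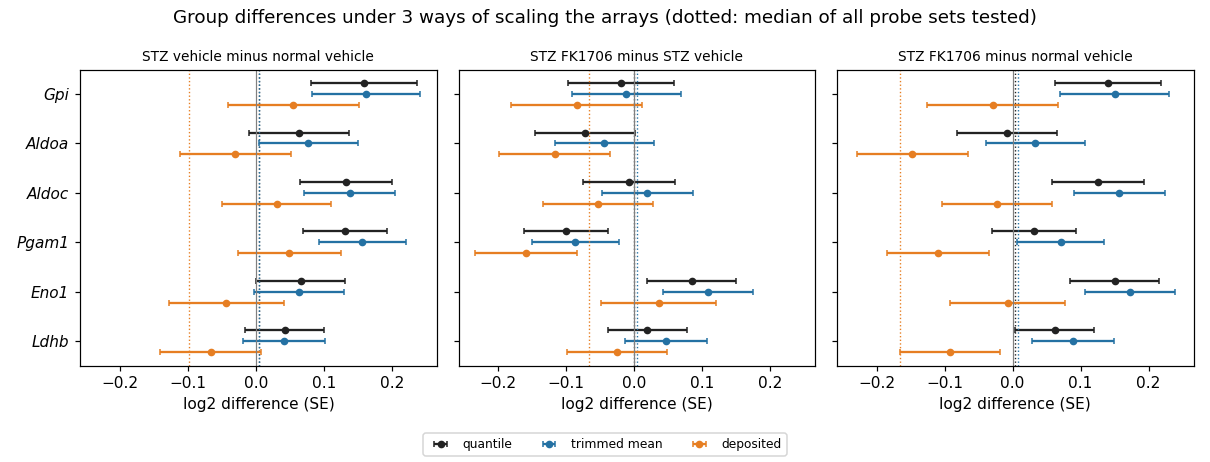
Log2 differences with SE (horizontal axis) of the 6 genes under quantile normalization, scaling to a common trimmed mean, and no scaling. Dotted lines mark the median of all probe sets tested, which was -0.10, -0.07 and -0.17 on the deposited scale. The deposited values sit to the left of both others for every gene, by about the shift of the array.

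For Aldoc and Eno1 the fitted differences between weeks reached 0.28 and -0.25, while those between groups reached 0.13 and 0.15. Aldoc was higher in week 2 than in week 1 in all 3 groups, by 0.18 in normal, 0.32 in STZ vehicle and 0.34 in FK1706 rats. The 3 arrays of week 1 lay between 11.71 and 11.75 and all later arrays between 11.79 and 12.07. The fitted difference was 0.28, a 1.21-fold ratio (SE 0.0678, 95% interval of the ratio 1.09 to 1.35), and it did not pass in limma (unadjusted p = 0.00178, adjusted p = 0.497). No probe set did (0% called, smallest adjusted p = 0.0676, with 547 at an unadjusted p under 0.05). On the deposited scale it was 0.0839 (adjusted p = 0.441 in limma), where the median of all probe sets was -0.20. For week 3 against week 1 Aldoc had 0.23 (SE 0.0678, unadjusted p = 0.00628, adjusted p = 0.217), and on the deposited scale -0.2168 (adjusted p = 0.0277 in limma). On the normalized scale all its week 3 arrays lay above all its week 1 arrays, as for 9.2% of all probe sets, and it was the 1 of the 6 with an unadjusted p under 0.05, against 12.8% of all probe sets.

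On the normalized scale Eno1 had its highest values in week 2 in each group. From week 1 to week 2 the log2 difference was 0.17 in normal, 0.16 in STZ vehicle and 0.24 in FK1706 rats, with a fitted value of 0.19 (SE 0.0652, unadjusted p = 0.0141, adjusted p = 0.784 in limma). On the deposited scale the fitted value was 0.0155, and the signal of STZ vehicle rats was lower in week 2 than in week 1. Aldoc and Eno1 were the 2 of 6 with an unadjusted p under 0.05 between these weeks, against 5.75% of all probe sets. From week 2 to week 3 it was -0.38, -0.18 and -0.20, with a fitted value of -0.25 (SE 0.0652, unadjusted p = 0.00251, adjusted p = 0.27 in limma), and on the deposited scale -0.50, where the median of all probe sets was -0.22. It was the 1 of the 6 with an unadjusted p under 0.05, against 10.2% of all probe sets, and none of the 6 passed, against 0.0105%. All week 3 arrays, at 11.72 to 12.02, were below all week 2 arrays, at 12.10 to 12.22. That held for 7.68% of all probe sets, and Eno1 was the 1 of the 6 genes to show it.

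Between weeks 1 and 2, 3 of the 6 genes (Aldoc, Eno1 and Ldhb) had all week 2 arrays above all week 1 arrays, as 5.72% of all probe sets did. Ldhb had 0.02, 0.16 and 0.10 in normal, STZ vehicle and FK1706 rats, with a fitted value of 0.09 (SE 0.0583, adjusted p = 0.908 in limma). Gpi, Aldoa and Pgam1 went different ways in the 3 groups, with fitted values of 0.00, -0.05 and -0.06. From week 2 to week 3 Gpi was higher in each group, by 0.09, 0.05 and 0.07, as 14.9% of all probe sets were. In the moderated F test over the weeks, none of the 6 passed and 0.0525% of all probe sets did. Aldoc (F = 9.61, unadjusted p = 0.00397, adjusted p = 0.253) and Eno1 (F = 8.26, unadjusted p = 0.00662, adjusted p = 0.286) were the 2 under an unadjusted p of 0.05, which 10.7% of all probe sets had. For week 3 against week 1, 0.021% of all probe sets passed and none of the 6 did.

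**Figure D4:**
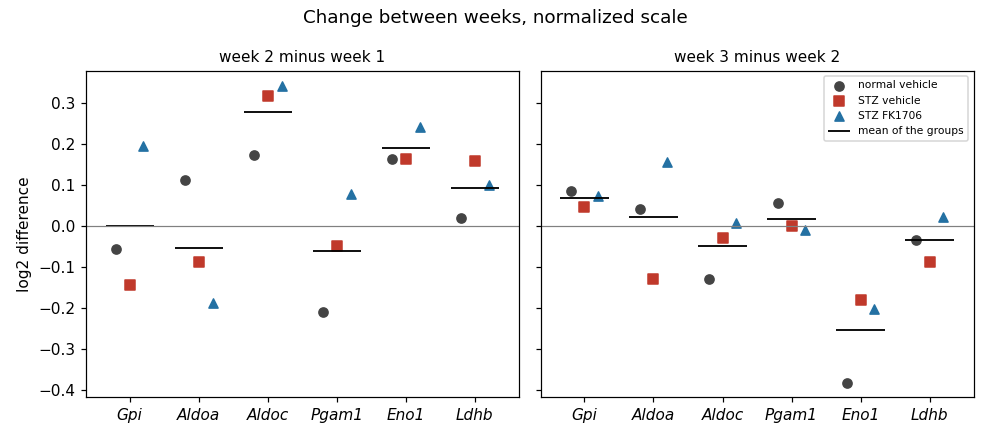
Log2 differences from week 1 to week 2 and from week 2 to week 3 (vertical axis) for the 6 genes, with 1 point per group and a bar at the fitted mean. The 3 points of Aldoc and of Eno1 lie above 0 on the left, and those of Eno1 lie below 0 on the right.

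On the deposited scale, where arrays lose signal over the weeks, all 6 genes were lower in week 3 than in week 1 in every group. The week 3 signal was 62.8% (Eno1) to 85.3% (Aldoa) of the week 1 signal in normal rats, where the trimmed mean of all probe sets was at 72.4%. In STZ vehicle rats it was 64.2% (Gpi) to 85.5% (Aldoc), beside 70.8% for the trimmed mean. In FK1706 rats it was 80.8% (Aldoa) to 98.4% (Aldoc), beside 77.4%. All 6 FK1706 values were thus above the trimmed mean of their arrays, and the other groups had values on both sides of it. The share of all probe sets above it was not counted, and each percentage rests on 1 array per week. No difference between groups is therefore read from these values. On the normalized scale Aldoa of FK1706 rats was lower in week 3 than in week 1 (-0.03 in log2), and the other genes were higher.

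**Figure D5:**
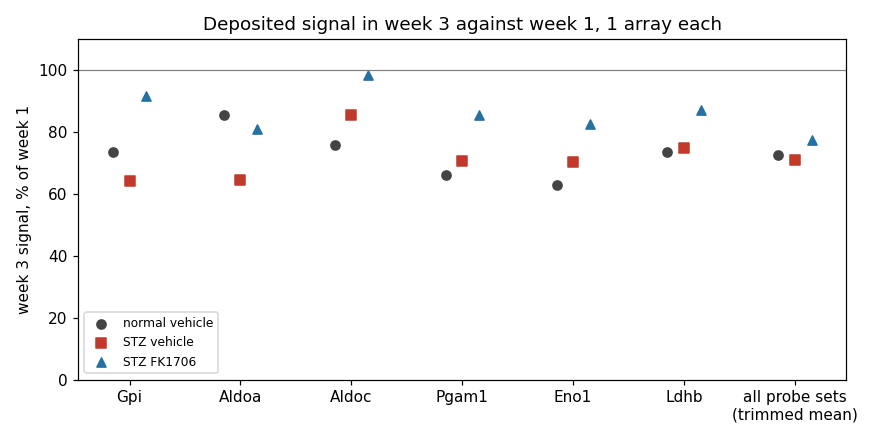
Deposited week 3 signal as a percentage of the week 1 signal (vertical axis) for the 6 genes and for the trimmed mean of all probe sets, with 1 point per group. In FK1706 rats Aldoc kept 98.4% and the trimmed mean 77.4%.

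Over the 9 arrays, which share their groups and weeks, the 15 pairs of genes had Pearson correlations from -0.34 to 0.91 with a median of 0.15, given here as a description. Of the 15, 11 were positive. Aldoc and Ldhb were most alike (r = 0.907, Spearman rho = 0.867), followed by Eno1 and Ldhb (r = 0.628, rho = 0.594) and by Gpi and Pgam1 (r = 0.617, rho = 0.477). Aldoa was negatively correlated with Aldoc and with Eno1 (r = -0.34 in both).

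Other genes were ranked by their likeness to each member over the same 9 arrays, out of 6984 with 1 probe set each, so high values arise by the number of genes compared. Susd4 came first for both Aldoc (r = 0.975) and Ldhb (r = 0.951). P4ha1, a prolyl hydroxylase subunit of collagen synthesis, followed for Aldoc (r = 0.925), then Ifnar2, an interferon receptor chain (r = 0.924), and Btrc (r = 0.918) and Yme1l1 (r = 0.916) followed for Ldhb. For Gpi they were Ankrd10 (r = 0.938), the adhesion molecule gene L1cam (r = 0.911) and Hspa13 (r = 0.908). For Aldoa they were Map4k2 (r = 0.89), Tmcc2 (r = 0.888) and the axon guidance receptor gene Robo1 (r = 0.885). For Pgam1 they were Atp5pb, a subunit of ATP synthase (r = 0.964), Mapk11 (r = 0.955) and Hyal2 (r = 0.953), and for Eno1 Mpst (r = 0.917), Pcgf3 (r = 0.9) and Chpf2 (r = 0.898).

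No other gene of the pathway passed in any comparison of groups. Of 25 other glycolytic genes listed, 19 had a probe set and 11 had tested ones, 14 probe sets in all. In STZ vehicle against normal none of the 14 passed, none had an unadjusted p under 0.05, and 11 were higher on the quantile scale, with a median of 0.04. The largest value was 0.31 (SE 0.159, adjusted p = 0.6 in limma) for Pfkfb2, which encodes an enzyme that sets the level of a phosphofructokinase activator, with 0.07, 0.22 and 0.64 in weeks 1, 2 and 3. Hk1, the main hexokinase of neurons, had 0.07 (SE 0.0779), Pgk1, phosphoglycerate kinase, had 0.06 (SE 0.0815) and 0.10 (SE 0.152) in its probe sets, and Ldha, the partner subunit of Ldhb, had 0.04 (SE 0.069). Eno2, the neuronal enolase, had 0.00 (SE 0.1) and Tpi1, triose phosphate isomerase, -0.01 (SE 0.0635). In FK1706 against STZ vehicle the median of the 14 was -0.04 and in FK1706 against normal it was 0.00, with none passing in either.

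Steps next to glycolysis were read in the same way, and none of their probe sets passed in any comparison of groups. Pyruvate and lactate handling genes, 15 probe sets of 14 genes, had a median of 0.14 in STZ vehicle against normal, and 3 of the 15 had an unadjusted p under 0.05, all higher on the quantile scale, against 8.7% of all probe sets in either direction. These were Pdp2, a phosphatase that activates pyruvate dehydrogenase (0.45, SE 0.183, adjusted p = 0.538 in limma), Slc16a1, a lactate transporter (0.22, SE 0.1, adjusted p = 0.567), and Dld, a subunit shared by pyruvate dehydrogenase (0.19, SE 0.0802, adjusted p = 0.549). Pdha1 gave 0.31 (SE 0.144) in one probe set and 0.00 (SE 0.0945) in another. Pentose phosphate genes, 10 probe sets of 7 genes, had a median of -0.04, with Taldo1, transaldolase, at 0.26 (SE 0.0985, adjusted p = 0.477 in limma). Rpia, ribose phosphate isomerase, had -0.31 (SE 0.132) and 0.18 (SE 0.113) in its probe sets, which disagreed in sign. Gluconeogenesis and glycerol phosphate genes, 4 probe sets of 3 genes, had a median of -0.06.

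Hypoxia-induced genes outside glycolysis, 12 probe sets of 10 genes, had a median of 0.02 in STZ vehicle against normal and of 0.01 in both other comparisons. Ndrg1 had -0.16 (SE 0.0592, adjusted p = 0.485 in limma), the glucose transporter gene Slc2a1 -0.11 (SE 0.0941), and Ddit4, an inhibitor of mTOR signalling, 0.26 (SE 0.123). In FK1706 against normal Ddit4 had 0.46 (SE 0.123, adjusted p = 0.347) and Slc2a1 -0.22 (SE 0.0941, adjusted p = 0.595). In the same comparison Pdp2 had 0.62 (SE 0.183, unadjusted p = 0.00591, adjusted p = 0.397 in limma), with 0.92, 0.79 and 0.16 in weeks 1, 2 and 3. Taldo1 had 0.40 (SE 0.0985, unadjusted p = 0.002, adjusted p = 0.32 in limma), with 0.40, 0.46 and 0.33. In FK1706 against STZ vehicle, the probe sets of Prps1, a phosphoribosyl pyrophosphate synthetase gene of the pentose phosphate list, disagreed in sign. The log2 difference was -0.19 (SE 0.0742, unadjusted p = 0.0296, adjusted p = 0.999 in limma) in 1 of them, with -0.15, -0.17 and -0.24 in weeks 1, 2 and 3. In the other it was 0.07 (SE 0.0788, adjusted p = 0.999 in limma), with 0.08, 0.02 and 0.10.

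Promoters of the members are shown because glycolytic genes are a textbook target of hypoxia-inducible factor and of carbohydrate response factors. The core site of the first takes the forms ACGTG and GCGTG, and the others bind pairs of boxes resembling CACGTG. Shown are Gpi, Pgam1 and Aldoc, which had the largest log2 differences between STZ vehicle and normal, and Ldhb, which had the smallest. Each runs 5′ to 3′ from 250 bases before to 50 bases after the gene's start in the RefSeq annotation of GRCr8, with ACGTG on either strand in capitals.
Gpi, chr1:95993212-95993511, - strand: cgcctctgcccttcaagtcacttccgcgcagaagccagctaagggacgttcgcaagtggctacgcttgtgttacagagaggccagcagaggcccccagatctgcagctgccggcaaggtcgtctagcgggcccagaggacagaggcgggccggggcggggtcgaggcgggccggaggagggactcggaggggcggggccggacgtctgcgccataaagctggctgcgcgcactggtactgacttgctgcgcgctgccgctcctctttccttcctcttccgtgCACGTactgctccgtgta
Pgam1, chr1:250672902-250673201, + strand: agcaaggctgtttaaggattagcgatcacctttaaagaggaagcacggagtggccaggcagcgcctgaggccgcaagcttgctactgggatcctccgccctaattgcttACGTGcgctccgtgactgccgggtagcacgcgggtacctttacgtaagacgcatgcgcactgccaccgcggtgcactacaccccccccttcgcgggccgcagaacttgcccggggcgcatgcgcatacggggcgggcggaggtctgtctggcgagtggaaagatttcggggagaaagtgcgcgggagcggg
Aldoc, chr10:63715294-63715593, + strand: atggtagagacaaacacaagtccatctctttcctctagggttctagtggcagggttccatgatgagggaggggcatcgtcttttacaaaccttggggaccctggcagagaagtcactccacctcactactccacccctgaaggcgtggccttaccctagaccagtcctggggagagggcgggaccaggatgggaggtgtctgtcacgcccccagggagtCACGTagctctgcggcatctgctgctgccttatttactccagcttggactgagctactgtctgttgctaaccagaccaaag
Ldhb, chr4:177177359-177177658, - strand: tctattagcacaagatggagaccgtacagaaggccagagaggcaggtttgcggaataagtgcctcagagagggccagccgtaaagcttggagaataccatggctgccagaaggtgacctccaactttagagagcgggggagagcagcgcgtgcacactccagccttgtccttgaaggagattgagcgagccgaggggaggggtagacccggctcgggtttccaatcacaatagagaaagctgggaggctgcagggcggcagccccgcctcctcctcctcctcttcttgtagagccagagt

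The promoter table held all 6 genes, with 9 starts in all, since Aldoa had 3 starts and Eno1 had 2. ACGTG was found on either strand at 5 of the 9 starts and in 5 of the 6 genes, all but Ldhb. GCGTG was not searched for, and on either strand it occurs in the Ldhb, Aldoc and Pgam1 sequences shown. Over the whole promoter table, ACGTG was found in 19.3% of all 33469 promoters of this length and in 20.9% of 27457 genes. Counted from the start of the gene, with negative positions before it, the match lay at 32 in Gpi, -141 in Pgam1 and -31 in Aldoc. Aldoa and Eno1, whose promoters are not shown, had smaller differences between STZ vehicle and normal, 0.06 and 0.07. Their matches lay at -192 from start 3 of Aldoa and at 38 from start 2 of Eno1. CACGTG, which contains ACGTG and reads alike on both strands, was at none of the 9 starts and in 6.42% of all promoters. GGGCGG, the core of the GC box bound by Sp1, was found on either strand in all 6 genes, at 6 of the 9 starts, and in 33.1% of all promoters. These counts describe the letters in these windows.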

How the data were processed

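Signals were made by the authors with MAS5, per the submitters' processing notes; no version is named there. The deposited values are linear signal intensity, 1 per probe set and array, and their MAS5 scaling is not stated. Of 15923 probe sets, 57 controls were left out, and of the rest 12783 had 1 gene symbol, 312 several and 2771 none. The GRCr8 gene table held 12748 of the single symbols by Entrez identifier and changed 0. An offset of 18.7 (the 10th percentile) preceded log2 and quantile normalization. Probe sets whose mean reached the 40th percentile, 9520 in all, were tested in R 4.3.3 with lmFit and a trended eBayes of limma 3.58.1. The model held group and week, leaving 4 residual degrees of freedom, and the trend model a linear week term per group, leaving 3. Tests were two-sided with Benjamini-Hochberg adjustment across the 9520, and a probe set passed with an adjusted p under 0.05. Week was the block, since each group was sampled once a week. Same-week deviations from group means had pairwise correlations between -0.000529 and 0.32. The models were also run on simulated data. The outcome is not given here, and no power or error rate for the genes above is drawn from it.

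Members and lists were chosen with earlier results of these data known. The rule named all members, the muscle genes Acta1, Ckm and Myl1, list genes called or, up to 4 per list and comparison described, with the largest moderated t, and the 3 genes most like each member by Pearson r. Not all genes that the rule allows are named. Dcn, Lum, Pdgfra, Myh1, Tnni1, Glul, Eno2 and Tpi1 were added after their values were seen. So were the further probe sets of a named gene and its values in other comparisons. Alternatives changed the scale, offset, filter, probe sets per gene, block, prior, muscle covariate and the arrays included. Intervals are 95% and unadjusted. The number of arrays limits the precision. No group had a repeated pool within a week, so the spread between pools of the same group and week was not observed. In the model of group and week, p-values rest on how the differences between groups varied over the weeks. That variation mixes the spread of pools and arrays with any true change of a group difference over the weeks. The trended eBayes also drew each variance toward those of other probe sets.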

Additional observations from a re-analysis of the deposited data

How the results depend on the processing

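In each of 22 alternatives, 0 of the 6 genes passed in every comparison of groups, and 0 passed for the week trend in the 18 settings that could be fitted. The fit with no replicate block, which leaves week out, called 0 of the 6 in each comparison of groups (smallest adjusted p = 0.688 in limma). Leaving out a week was not run for comparisons between weeks. On the deposited scale 6 of 6 passed for week 3 against week 1 (-0.401 for Gpi, -0.3903 for Aldoa, -0.2168 for Aldoc, -0.4397 for Pgam1, -0.4833 for Eno1 and -0.3534 for Ldhb) and 6 of 6 in the F test over weeks, with 6816 and 5936 of the 9520 probe sets, since those arrays were left unscaled. Over the whole table, STZ vehicle against normal called 6 probe sets. That count was 12 for deposited values, 0 when no filter was used, 0 when the prior had no trend, 1 with no replicate block, 3 with the muscle covariate and 0 to 11 with an array or week left out. FK1706 against normal called 0, but 89 on the deposited scale and up to 2 elsewhere, and the F test over weeks called 5, with 0 to 7 outside the deposited scale.

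The sign of the log2 difference turned on the deposited scale for Aldoa (-0.0303), Eno1 (-0.0435) and Ldhb (-0.0664) in STZ vehicle against normal, Ldhb (-0.0256) in FK1706 against STZ vehicle, Gpi (-0.0292), Aldoc (-0.0229), Pgam1 (-0.1098), Eno1 (-0.0075) and Ldhb (-0.092) in FK1706 against normal, Gpi (-0.401), Aldoc (-0.2168) and Ldhb (-0.3534) in week 3 against week 1. On the trimmed mean scale it turned for Aldoc (0.0193) in FK1706 against STZ vehicle, Aldoa (0.0332) in FK1706 against normal, Aldoa (0.0537) and Pgam1 (0.0041) in week 3 against week 1, and with the muscle covariate for Pgam1 (-0.0038) in FK1706 against normal. 

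Leaving out arrays turned the sign of differences with values from -0.0644 to 0.0683 over all arrays, and of week trends from -0.0634 to 0.1206. For STZ vehicle against normal they were Aldoa (-0.023 to 0.1502 without 1 array, -0.0283 to 0.1472 without 1 week, turned without normal week 1) and Eno1 (-0.0038 to 0.1097 without 1 array, -6e-04 to 0.1021 without 1 week, turned without normal week 3). For FK1706 against STZ vehicle they were Gpi (-0.0705 to 0.0795 without 1 array, -0.0861 to 0.0966 without 1 week, turned without STZ vehicle week 1 and FK1706 week 1), Aldoc (-0.052 to 0.0392 without 1 array, -0.0233 to 0.0065 without 1 week, turned without FK1706 week 1 and STZ vehicle week 3) and Ldhb (-0.0104 to 0.0501 without 1 array, -0.0076 to 0.0463 without 1 week, turned without FK1706 week 3). For FK1706 against normal they were Aldoa (-0.0956 to 0.0617 without 1 array, -0.0868 to 0.0674 without 1 week, turned without normal week 2, FK1706 week 2 and normal week 3) and Pgam1 (-0.0173 to 0.0978 without 1 array, -0.0244 to 0.121 without 1 week, turned without normal week 2 and FK1706 week 2). Aldoa there also turned without week 2 and without week 3 (0.0036). For week 3 against week 1 they were Gpi (-0.0303 to 0.1456 without 1 array, turned without FK1706 week 1), Aldoa (-0.1192 to 0.0571 without 1 array, turned without STZ vehicle week 1, FK1706 week 1 and STZ vehicle week 3), Pgam1 (-0.1068 to 0.0223 without 1 array, turned without normal week 1) and Eno1 (-0.1049 to 0.0054 without 1 array, turned without normal week 3). For the week trend of STZ vehicle against normal they were Gpi (-0.1582 to 0.0313 without 1 array, turned without STZ vehicle week 1 and normal week 3), Aldoc (-0.0512 to 0.2905 without 1 array, turned without STZ vehicle week 1 and normal week 3), Pgam1 (-0.0828 to 0.1837 without 1 array, turned without normal week 1), Eno1 (-0.1761 to 0.3749 without 1 array, turned without STZ vehicle week 1 and normal week 3) and Ldhb (-0.0786 to 0.1643 without 1 array, turned without STZ vehicle week 1).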
